A study of Caenorhabditis elegans with 4 samples.

Results

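The genes described here link the state of the lysosome to the transcription of lysosomal genes. They are hlh-30, mxl-3, let-363, daf-15, raga-1, ragc-1, rheb-1, flcn-1 and xpo-1, chosen by name for their roles in this pathway, and all 9 have a row among the 14463 genes of the deposited count table. Expression was measured in body-wall muscle cells of C. elegans embryos at the 1.5-fold stage, in 2 mir-1(luc108) libraries and 2 wild-type libraries. The mutant animals, strain MLC2277, carry a deletion of the muscle microRNA gene mir-1 on top of the reporter lucEx1207(myo-3p::YFP), and the wild-type animals, strain MLC2232, carry the same reporter alone. By its name lucEx1207 is an extrachromosomal array, in which the promoter of the muscle myosin gene myo-3 drives a yellow fluorescent protein, and such arrays can be lost from single cells. Worms were grown at 20 °C per the labels, while the methods give a slightly higher temperature for the growth of plated larvae to adults. The worms were synchronised by bleaching. The methods describe their pooled embryos as kept at a still warmer temperature after collection, when most but not all had reached the 1.5-fold stage. These embryos were dissociated so that living fluorescent cells could be sorted. The study calls the libraries of each genotype biological duplicates, while neither the labels nor the methods say whether they came from separate cultures or sorts. The p-values below cover the spread between these libraries, which the tests estimate for each gene with help from the other genes. Counts are of unique molecular identifiers (UMIs), tags that let copies of the same cDNA be counted once, read at the 3′ ends of polyadenylated transcripts.

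HLH-30 is the worm ortholog of the mammalian factor TFEB, a basic helix-loop-helix leucine zipper protein that enters the nucleus when nutrients are short and activates genes for lysosomes and autophagy. MXL-3, a Max-like protein of the same class, is known in the worm intestine to hold down lysosomal lipase genes in fed animals, where HLH-30 opposes it upon fasting. Upstream of HLH-30 stands TOR complex 1, which the Rag GTPases bring to the lysosome surface when amino acids are plentiful, together with the V-ATPase and the Ragulator complex, and which the GTPase Rheb switches on there. In mammals active TOR complex 1 keeps TFEB in the cytoplasm, and folliculin helps it to do so by acting on the Rag GTPases. The export receptor XPO-1 carries HLH-30 out of the worm nucleus. Levels of transcripts, as measured here, do not report where these proteins are or how active they are.

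Depth was 453341 and 343227 UMI counts in mir-1(luc108), against 245336 and 424968 in wild type. Levels are given in CPM, counts scaled to a common library size with TMM factors, which correct for differences in library composition, and a single UMI was worth between 2.27 and 4.27 CPM. Of the 5111 genes that passed a filter on low counts, 3 (0.0587%) had an adjusted p below 0.05 between the genotypes by edgeR's quasi-likelihood test. Body-wall muscle markers were abundant in every library, with all 12 listed genes detected. Their summed level was nonetheless lower in the mutant, at 17521 and 16034 CPM in mir-1(luc108) against 23916 and 22012 CPM in wild type. None of the 12 had a positive log2 fold change, and by edgeR 7 had an unadjusted p below 0.05, all 7 lower. Of all genes tested, 4.58% were lower and 3.62% higher by that rule. In bulk samples such as these, fewer cells of a type and less RNA per cell cannot be told apart. None of the markers listed for other cell types was at 0 in all libraries. Intestinal markers summed to 195 and 193 CPM in mir-1(luc108) and to 98.2 and 184 CPM in wild type. Neuronal markers summed to 682 and 524 CPM in mir-1(luc108) and to 423 and 569 CPM in wild type, and pharyngeal muscle markers to 234 and 177 CPM in mir-1(luc108) and to 196 and 487 CPM in wild type. In the neuronal and pharyngeal sets 1 gene each had an unadjusted p below 0.05 by edgeR. These were the neuronal unc-119 at a log2 fold change of 0.73 (edgeR adjusted p = 0.311) and the pharyngeal tnc-2 at −1.29 (edgeR adjusted p = 0.473). Of the intestinal markers 2 were tested, both with a positive log2 fold change and neither with an unadjusted p below 0.05 by edgeR. Hypodermal markers summed to between 2604 and 3005 CPM in mir-1(luc108) and between 2633 and 2698 CPM in wild type, and germ line markers to 20.4 and 31.6 CPM in mir-1(luc108) and 21.3 and 12.8 CPM in wild type. The part of other cell types in the results below was not tested.

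All of the 9 genes were detected in all 4 libraries. In wild-type muscle cells hlh-30 was the most abundant, at 292 ± 39.2 CPM (SD, n = 2), and the TOR complex genes daf-15 and let-363 followed at 129 ± 16.3 and 108 ± 7.24 CPM (SD, n = 2). Next came xpo-1 at 82.0 ± 10.9 CPM (SD, n = 2), and then mxl-3, flcn-1 and raga-1, with means between 45.7 and 52.5 CPM and overlapping libraries. The least abundant were ragc-1 at 26.9 ± 1.81 CPM (SD, n = 2) and rheb-1 at 4.27 and 28.2 CPM, which overlapped each other. These levels were not divided by transcript length, since the protocol counts the 3′ end of a molecule rather than fragments along it, but the yield of priming may still differ between genes. In mir-1(luc108) cells the order was the same at both ends, with hlh-30 highest and rheb-1 lowest. The place of mxl-3 differed, with a level in mir-1(luc108) that overlapped or touched those of let-363 and daf-15 and lay above both xpo-1 libraries, whereas in wild type it lay below both xpo-1 libraries. The plot of levels by library shows these orders together with the counting error of each value.

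**Figure D1:**
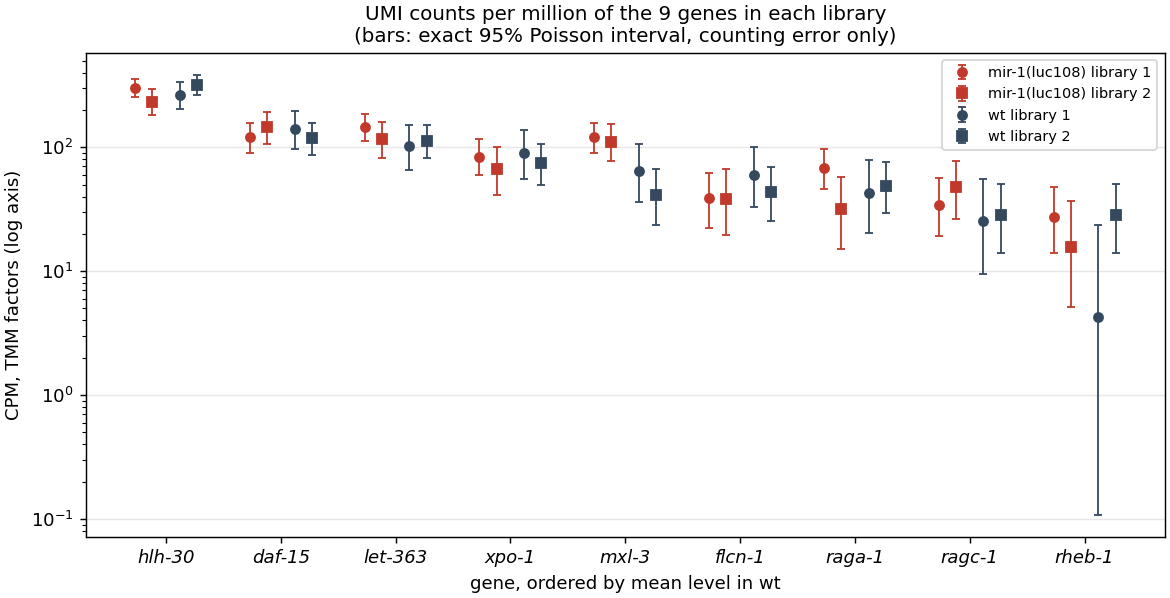
Level of each of the 9 genes in each library, in CPM on a log axis, with mir-1(luc108) libraries in red to the left and wild-type libraries in dark blue to the right; bars are exact 95% Poisson intervals of the UMI count, which cover counting error only. The mir-1(luc108) libraries of mxl-3 lie at 120 and 110 CPM, above the wild-type libraries at 64.0 and 41.0 CPM, while those of hlh-30, daf-15, raga-1, rheb-1 and xpo-1 overlap with wild type.

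Of the 2 transcription factor genes, mxl-3 was higher in mir-1(luc108) than in wild type and hlh-30 overlapped between the genotypes. mxl-3 (WBGene00003511) is found on the minus strand of chromosome X, between 13349639 and 13350804 in the WBcel235 build, with 1 annotated transcript and a 286 bp 3′UTR. It was counted at 53 and 35 in mir-1(luc108) and 15 and 16 UMIs in wild type, or 120 and 110 CPM in mir-1(luc108) against 64.0 and 41.0 CPM in wild type. Both mutant libraries were thus higher than both wild-type libraries, and the genotypes did not overlap. The means were 115 ± 7.03 CPM in mir-1(luc108) and 52.5 ± 16.3 CPM in wild type (SD, n = 2 each), a log2 fold change of 1.20 (standard error, SE, 0.33; 95% interval 0.51 to 1.88) or 2.29-fold. The unadjusted p was 0.00182, the rank 48 of 5111 genes tested, and the adjusted p was 0.193 by edgeR's quasi-likelihood test, so that the difference did not pass the threshold over all genes. The ratio of summed counts, scaled by library size, was 2.34, with exact 95% bounds of 1.54 and 3.65 for counting error alone. With DESeq2 in place of edgeR the log2 fold change was 1.16 with an unadjusted p of 0.0530, and with its prior, which shrinks fold changes, 0.61 with an unadjusted p of 0.0535. Leaving out the second wild-type library gave a log2 fold change of 0.85. Over the edgeR alternatives with every library kept, the adjusted p lay between 0.0733 and 0.239. DESeq2 gave no adjusted p for mxl-3. No annotated protein-coding gene lies within 1000 bp of mxl-3, and its nearest neighbours are noncoding RNA genes upstream.

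hlh-30 (WBGene00020930) lies on chromosome IV from 4014793 to 4034951 on the minus strand, with 13 annotated transcripts and 3′UTRs of 904 to 1207 bp. It had 133 and 74 UMI counts in mir-1(luc108) and 62 and 125 in wild type, or 302 and 234 CPM in mir-1(luc108) against 265 and 320 CPM in wild type. The libraries of the genotypes overlapped, with the highest and the lowest value on opposite sides. The log2 fold change was −0.13 (SE 0.22, edgeR adjusted p = 0.946), and its 95% interval, from −0.60 to 0.34, runs from 0.662-fold to 1.26-fold. hlh-30 had the narrowest interval of the group, and its level was above that of 88.7% of the genes tested.

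Since MXL-3 and HLH-30 oppose each other on lipase genes, their transcripts were also compared within each library, a comparison chosen after the values were seen. mxl-3 made up 28.5% of the summed counts of both genes in the first mir-1(luc108) library (Wilson 95% interval 22.5 to 35.4%) and 32.1% in the second (24.1 to 41.4%). In wild type the share was 19.5% in the first library (12.2 to 29.7%) and 11.3% in the second (7.11 to 17.6%). The mutant shares were both above the wild-type shares, and the intervals of the second wild-type library lay apart from those of both mutant libraries, while those of the first wild-type library overlapped with both. Within a library this share does not depend on scaling, and the intervals cover counting error only. Libraries of the same genotype differed by more than counting error. The chi-square per gene was 2.38 between the mir-1(luc108) libraries and 2.11 between the wild-type libraries. The share reuses the mxl-3 counts given above, so it is not separate support for a difference in mxl-3.

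Those lysosomal lipase genes of the lipl family that had a row in the count table had few counts in these cells. Of the 8 lipl genes listed, 5 had a row in the count table, and none passed the filter on low counts. lipl-7 had the most, with 5 and 8 UMI counts in mir-1(luc108) and 5 and 11 in wild type, and lipl-2, lipl-4, lipl-5 and lipl-6 had at most 3 in any library. lipl-1, lipl-3 and lipl-8 were not found in the count table under these names, so nothing can be said of them. At this depth a difference in lipase transcripts was not detectable. Of the 6 other factors of the Mondo, Max and related families listed, 4 were tested, namely mml-1, mxl-1, mxl-2 and mdl-1. Their log2 fold changes lay between −0.26 and 0.18, with a median of −0.16, and none had an unadjusted p below 0.05. mxl-1, which encodes a worm Max, was at 0.18 on this scale (SE 0.30, edgeR adjusted p = 0.941).

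**Figure D2:**
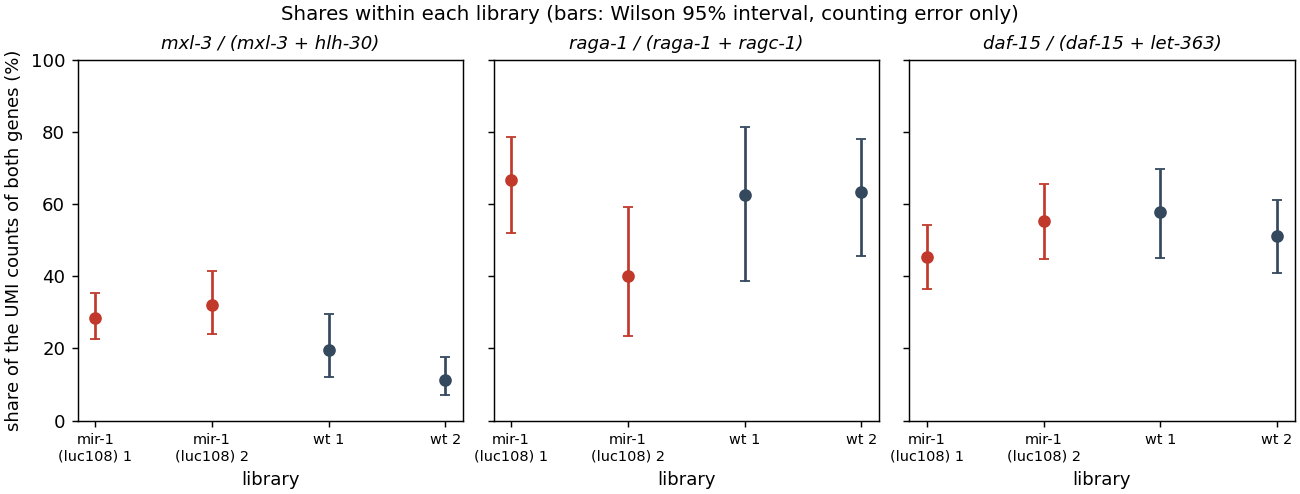
Share of the first gene in the summed UMI counts of a pair, in percent, for mxl-3 with hlh-30, raga-1 with ragc-1 and daf-15 with let-363, in each mir-1(luc108) library (red, left) and each wild-type library (dark blue, right); bars are Wilson 95% intervals. For mxl-3 with hlh-30 the mir-1(luc108) libraries lie at 28.5 and 32.1% and the wild-type libraries at 19.5 and 11.3%, while in the other pairs the genotypes overlap.

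LET-363 is the TOR kinase itself, and DAF-15 is its partner raptor, which picks the substrates of TOR complex 1. let-363 (WBGene00002583, chromosome I from 5245743 to 5263424, plus strand) had 64 and 37 UMI counts in mir-1(luc108) and 24 and 44 in wild type. This came to 145 and 117 CPM in mir-1(luc108) against 102 and 113 CPM in wild type. Both mutant libraries were higher, but by little. The log2 fold change was 0.29 (SE 0.27, 95% interval −0.29 to 0.86, edgeR adjusted p = 0.864), and it was 0.095 if the first mutant library was dropped. daf-15 (WBGene00000911, chromosome IV from 9386208 to 9394979, plus strand) had 53 and 46 UMI counts in mir-1(luc108) and 33 and 46 in wild type, or 120 and 145 CPM in mir-1(luc108) against 141 and 118 CPM in wild type. Its genotypes overlapped, with a log2 fold change of 0.045 (SE 0.27, 95% interval −0.51 to 0.60, edgeR adjusted p = 0.982) whose sign turned to −0.10 when the second wild-type library was dropped and to −0.086 when the second mutant library was. The 3′ end of daf-15 overlaps the end of the collagen gene col-121, on the other strand, by 107 bp, and whether the counting used strand is not given in the sources used here. daf-15 held 45.3 and 55.4% of the summed counts of the pair in mir-1(luc108) and 57.9 and 51.1% in wild type, with intervals that all overlapped.

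RAGA-1 and RAGC-1 are the Rag GTPases that work as a pair, with RAGA-1 as the RagA or RagB ortholog and RAGC-1 as that of RagC or RagD. raga-1 (WBGene00006414, chromosome II from 11301359 to 11302776, plus strand) had 30 and 10 UMI counts in mir-1(luc108) and 10 and 19 in wild type, or 68.2 and 31.6 CPM in mir-1(luc108) against 42.7 and 48.7 CPM in wild type. The mir-1(luc108) libraries lay on either side of the wild-type libraries. The log2 fold change, 0.17 (SE 0.41, 95% interval −0.68 to 1.02, edgeR adjusted p = 0.961), was 0.56 if the second mutant library was dropped and −0.56 if the first was, so that its direction was set by which mutant library was kept. ragc-1 (WBGene00012497, chromosome IV from 11603613 to 11604933, minus strand) had 15 UMI counts in each mir-1(luc108) library and 6 and 11 in wild type. In CPM these were 34.1 and 47.4 in mir-1(luc108) and 25.6 and 28.2 in wild type. Both mutant libraries were higher, with a log2 fold change of 0.55 (SE 0.46, 95% interval −0.41 to 1.50, edgeR adjusted p = 0.836). With 17 UMI counts in wild type in all, the counting interval of the ratio alone ran from 0.778 to 2.82. raga-1 made up 66.7 and 40.0% of the counts of the pair in mir-1(luc108) and 62.5 and 63.3% in wild type, with intervals that all overlapped. saps-1 and samp-1 lie 98 bp upstream and 114 bp downstream of raga-1 on the same strand, and the ribosomal protein gene rps-11 ends 332 bp downstream of ragc-1 on the other.

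RHEB-1, the GTPase that activates TOR complex 1, had too few counts for the test. rheb-1 (WBGene00010038, chromosome III from 9454163 to 9456030, minus strand) had 12 and 5 UMI counts in mir-1(luc108) and 1 and 11 in wild type, or 27.3 and 15.8 CPM in mir-1(luc108) against 4.27 and 28.2 CPM in wild type. Both wild-type values lay outside the range of the mutant ones, on either side of it. The ratio of summed counts, scaled by library size, was 1.17, with an exact 95% interval of 0.526 to 2.68 for counting error only. Without the filter on low counts its log2 fold change was 0.27 (SE 0.61), and −0.33 when the first wild-type library, with its single UMI, was left out. No statement on the direction of rheb-1 can be drawn from these counts.

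Of the genes for FLCN-1, the worm folliculin, and XPO-1, the export receptor, flcn-1 had the lowest of the 8 fold changes and xpo-1 overlapped between the genotypes. flcn-1 (WBGene00017699, chromosome II from 6928763 to 6947900, plus strand) had 17 and 12 UMI counts in mir-1(luc108) and 14 and 17 in wild type, or 38.6 and 37.9 CPM in mir-1(luc108) against 59.8 and 43.5 CPM in wild type. Both mutant libraries were lower than both wild-type libraries. The log2 fold change was −0.38 (SE 0.39, 95% interval −1.21 to 0.44, edgeR adjusted p = 0.885), and fits to any 3 of the libraries put it between −0.64 and −0.17. xpo-1 (WBGene00002078, chromosome V from 7805064 to 7814656, plus strand) had 37 and 21 UMI counts in mir-1(luc108) and 21 and 29 in wild type, or 84.1 and 66.3 CPM in mir-1(luc108) against 89.7 and 74.3 CPM in wild type. The genotypes overlapped, with a log2 fold change of −0.086 (SE 0.32, 95% interval −0.75 to 0.58, edgeR adjusted p = 0.976), which was 0.041 if the first wild-type library was dropped and 0.058 if the second mutant library was. ZK742.6 overlaps the 3′ end of xpo-1 by 153 bp on the other strand, and malt-1 that of flcn-1 by 46 bp.

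**Figure D3:**
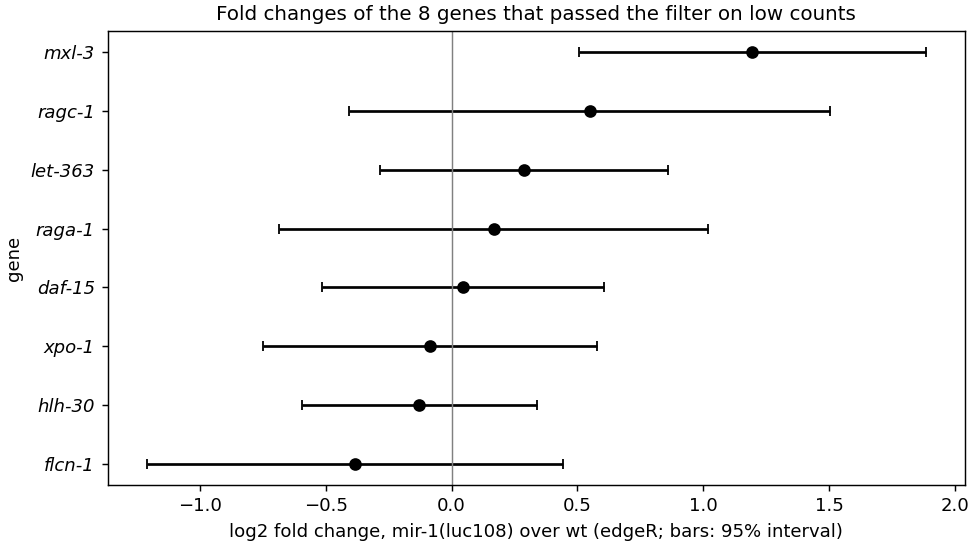
log2 fold change of mir-1(luc108) over wild type for the 8 genes that passed the filter on low counts, from edgeR, with bars for the 95% interval. Only the interval of mxl-3, from 0.51 to 1.88, lies to one side of 0, and those of the other 7 genes include it.

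Over the 8 genes tested, 5 had a positive and 3 a negative log2 fold change, and the median was 0.11, against 2570 of 5111 positive and a median of 0.0030 over all genes tested. By edgeR none had an adjusted p below 0.05, and 1, mxl-3, had an unadjusted p below 0.05, where 3.62% of all genes were higher and 4.58% lower by that rule. DESeq2 with its default dispersion trend gave none of these genes an unadjusted p below 0.05, and it gave no adjusted p except for hlh-30 (0.990, without prior); limma-voom gave mxl-3 alone an unadjusted p below 0.05. For 3 of the 8, mxl-3, let-363 and ragc-1, the mutant libraries were both above those of wild type, and for 1, flcn-1, both were below. Of all genes tested, 19.5% parted in the first way and 18.9% in the second. With 2 libraries against 2, an exact permutation test of a single gene cannot give a two-sided p under 0.333. The median of the group turned to −0.10 without the first mir-1(luc108) library. As the plot of fold changes with each library left out shows, the sign of the log2 fold change was the same in every such fit for mxl-3, ragc-1, let-363 and flcn-1, and differed between fits for raga-1, daf-15, xpo-1 and hlh-30.

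**Figure D4:**
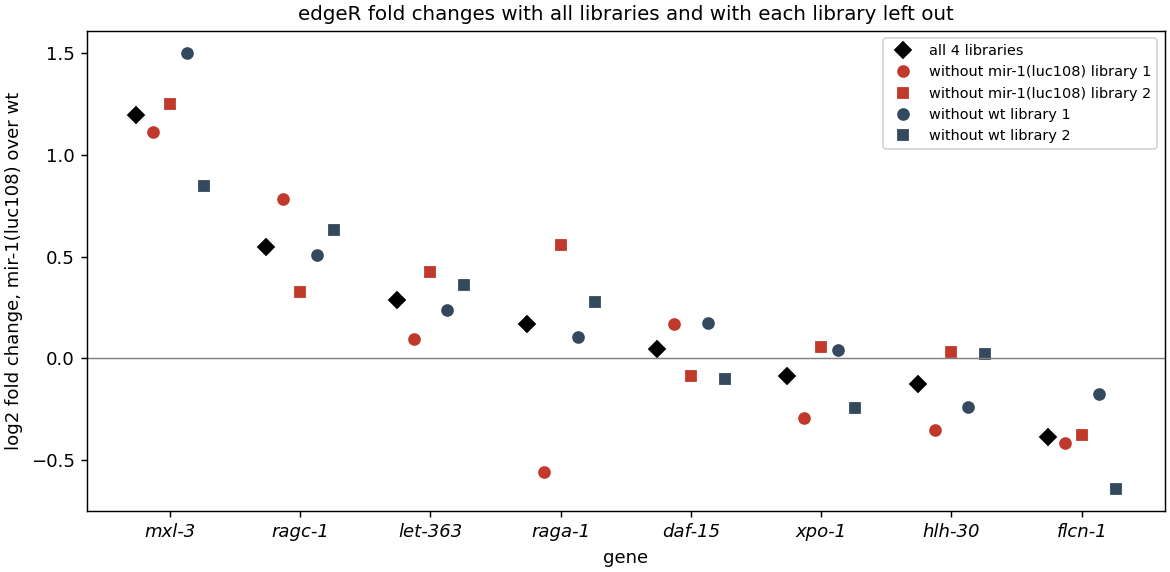
log2 fold change of mir-1(luc108) over wild type from edgeR for the 8 tested genes, with all 4 libraries (diamonds) and with a single library dropped (red for a mir-1(luc108) library, dark blue for a wild-type library; circles for the first and squares for the second library of a genotype). mxl-3 lies between 0.85 and 1.50 in these fits, and raga-1 between −0.56 and 0.56.

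Other genes of the pathway were taken from lists drawn up by function. Of 21 further genes for TOR complexes, the Ragulator and GATOR complexes and AMPK with a row in the table, only 6 passed the filter. The TOR complex 2 subunit gene rict-1 was among the scarce ones, at 5 and 3 UMI counts in mir-1(luc108) and 3 and 4 in wild type. The median log2 fold change of the 6 was 0.069 and none had an adjusted p below 0.05. lmtr-2, a subunit of the Ragulator complex that anchors the Rag GTPases to the lysosome, had the only unadjusted p below 0.05. It had 72 and 47 UMI counts in mir-1(luc108) and 20 and 46 in wild type, a log2 fold change of 0.59 (SE 0.27, unadjusted p = 0.0424, edgeR adjusted p = 0.584), with both mutant libraries above both wild-type libraries. The Ragulator subunit lmtr-3 had a log2 fold change of 0.31 with an SE of 0.32. The lowest of the 6 was nprl-3, a GATOR subunit gene, with 7 and 4 UMI counts in mir-1(luc108) and 7 and 12 in wild type and a log2 fold change of −1.05 with an SE of 0.58. The AMPK catalytic subunit gene aak-2, with 18 and 13 UMI counts in mir-1(luc108) and 13 and 27 in wild type, had a log2 fold change of −0.63 (SE 0.36, edgeR unadjusted p = 0.0971).

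Among 12 genes for the outputs of TOR in translation, 10 were tested, 4 with a positive and 6 with a negative log2 fold change and a median of −0.090. ife-2, a form of the cap-binding factor eIF4E, had 20 and 28 UMI counts in mir-1(luc108) and 6 and 13 in wild type, a log2 fold change of 1.08 (SE 0.43, unadjusted p = 0.0211, edgeR adjusted p = 0.503). It was the only gene of this list with an unadjusted p below 0.05, and its libraries parted by genotype. rsks-1, the S6 kinase that TOR phosphorylates, had 26 and 18 UMI counts in mir-1(luc108) and 20 and 34 in wild type, a log2 fold change of −0.57 (SE 0.32, edgeR unadjusted p = 0.0900). Its substrate rps-6 was at 1029 CPM in mir-1(luc108) and 1022 CPM in wild type on average, a log2 fold change of 0.0061. In the insulin and PI3K branch, which feeds into TOR, 7 of 13 genes were tested, with a median log2 fold change of −0.075 and none with an unadjusted p below 0.05. The lowest of these was akt-1, at −0.62 (SE 0.36, edgeR adjusted p = 0.722).

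Genes for autophagy and the lysosome were listed by function, and whether HLH-30 acts on them in these cells was not measured. Of these, 23 of 29 were tested, of which 9 had a positive and 14 a negative log2 fold change. Their median was −0.059 and none had an unadjusted p below 0.05. lgg-1, the worm Atg8 and the most abundant of the autophagy genes listed, had 410 and 257 UMI counts in mir-1(luc108) and 231 and 318 in wild type, with a log2 fold change of −0.039 (SE 0.20, edgeR adjusted p = 0.980). sqst-1, the receptor p62, was at −0.20 (SE 0.26), and lmp-1, a lysosomal membrane protein, at 0.31 (SE 0.26).

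XPO-1 works with the small GTPase Ran, and 9 of 13 genes for nuclear transport were tested, 5 with a positive and 4 with a negative log2 fold change and a median of 0.17. Here 2 genes had an unadjusted p below 0.05, in opposite directions. ran-1, which encodes Ran, had 82 and 74 UMI counts in mir-1(luc108) and 29 and 55 in wild type, a log2 fold change of 0.64 (SE 0.25, unadjusted p = 0.0172, edgeR adjusted p = 0.473). ran-2, which encodes its GTPase-activating protein, had 6 and 7 UMI counts in mir-1(luc108) and 9 and 24 in wild type, a log2 fold change of −1.57 (SE 0.49, unadjusted p = 0.00438, edgeR adjusted p = 0.264). For both genes the libraries parted by genotype, as they did in either direction for 38.3% of all genes tested. Like lmtr-2 and ife-2, both were named for a small p in these same libraries, so the parting is no further support. Neither passed the threshold over all genes. Of the 59 genes tested over all of these lists, 4 (6.78%), namely lmtr-2, ife-2, ran-1 and ran-2, had an unadjusted p below 0.05, against 8.20% of all genes tested, and no listed gene had an adjusted p below 0.05. Each of the 4 had an unadjusted p above 0.05 by DESeq2 and in some fits with a library dropped, the highest being 0.219 for lmtr-2 without the first wild-type library, 0.272 for ife-2 and 0.122 for ran-1 without the second mutant library, and 0.284 for ran-2 without the second wild-type library.

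**Figure D5:**
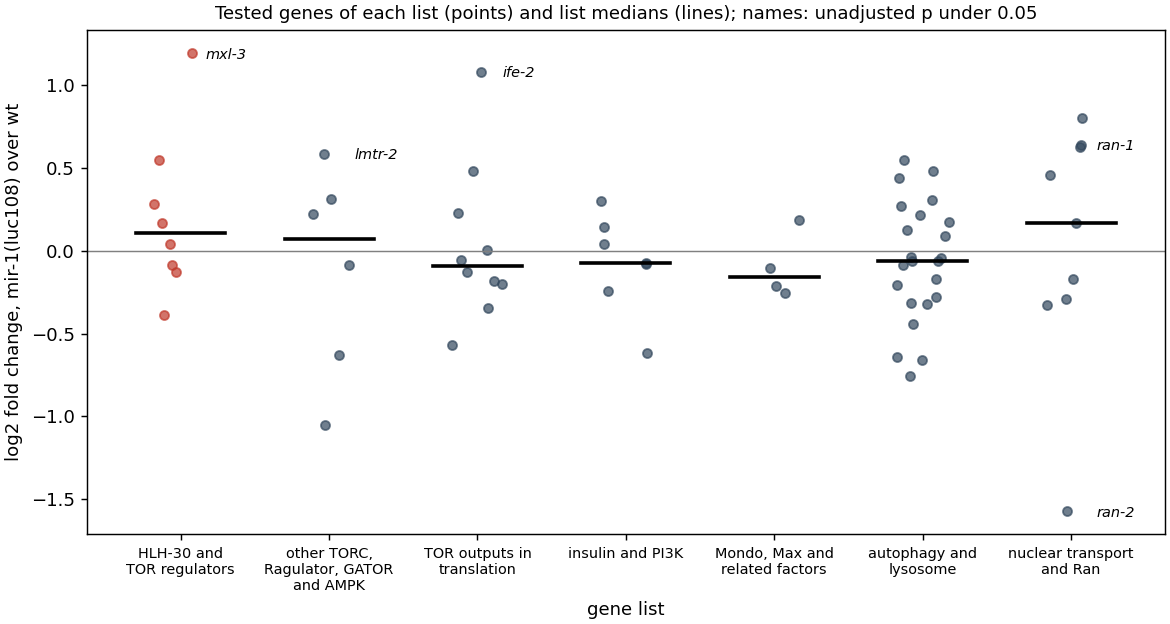
log2 fold change of mir-1(luc108) over wild type for each tested gene of the HLH-30 and TOR regulators (red) and of the other pathway lists (dark blue), with lines for the medians of the lists; genes with an unadjusted p below 0.05 by edgeR are named. The list medians lie between −0.16 and 0.17, and the named genes mxl-3, lmtr-2, ife-2, ran-1 and ran-2 lie at 1.20, 0.59, 1.08, 0.64 and −1.57.

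The genes whose pattern over the 4 libraries was most like that of mxl-3 were found by the distance between log2 CPM values centred on the mean of each gene. The nearest of 5110 genes was Y38H6C.24, at a distance of 0.100, with 22 and 16 UMI counts in mir-1(luc108) and 6 in each wild-type library. gly-3, which encodes an enzyme of mucin-type O-glycosylation, came next at 0.168, with 51 and 40 UMI counts in mir-1(luc108) and 16 and 17 in wild type. W03F9.1 followed at 0.252, and F57C2.5 and clpp-1 at 0.265 each, with counts identical to each other in all 4 libraries. Over these 4 libraries 51 genes lay within a distance of 0.5 of mxl-3. Since the 5 genes were picked for this pattern, their higher counts in mir-1(luc108) were fixed by the choice. The edgeR adjusted p was 0.372 for Y38H6C.24, 0.196 for gly-3, 0.506 for W03F9.1 and 0.674 for both F57C2.5 and clpp-1.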

How the data were processed

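QuantSeq 3′ end libraries of sorted muscle cells were analysed, 2 of mir-1(luc108) and 2 of wild type, grouped by their titles. The deposited values are UMI counts per gene, not normalized. Per the methods and the labels, the authors took UMIs out of the reads with UMI-tools, trimmed adaptors, mapped to WBcel235 with STAR, removed duplicates by UMI and counted with HTSeq. Versions, annotation release and strand setting are not given in the sources used here.

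Counts were fitted for all genes with edgeR 4.0.16 in R 4.3.3 (quasi-likelihood test, TMM factors, filterByExpr with a minimum count of 10, Benjamini-Hochberg adjustment). DESeq2 1.42.0 and limma 3.58.1 were alternatives, with other scalings, filters, a replicate block and each library left out. Standard errors are the fitted coefficient over the root of the quasi-F. Positions come from Ensembl 115, a WBcel235 annotation. The genes and lists were chosen with earlier results of these data known. Named were all 9 genes, the 3 smallest p below 0.05 of each list and the 5 patterns nearest to the gene with the smallest p; others named were chosen after their values were seen. No nucleotide or protein sequences were used here.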

Additional observations from a re-analysis of the deposited data

How the results depend on the processing

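No adjusted p that was obtained for the 9 genes was below 0.05. DESeq2 gave one for hlh-30 alone, in the fit without prior, and rheb-1 was fitted only without the filter on low counts, with at least 4 counts in some library, by DESeq2 and in a pair of the fits with a library dropped. The direction was the same in every alternative for mxl-3, let-363, ragc-1, flcn-1, lmtr-2, ife-2, ran-1 and ran-2. By DESeq2 without prior the unadjusted p was 0.213 for lmtr-2, 0.145 for ife-2, 0.126 for ran-1 and 0.0985 for ran-2, and by limma-voom 0.0562 for ife-2. For the other members, dropping a single library could turn it. hlh-30 was 0.021 without the second wild-type and 0.033 without the second mutant library (range −0.35 to 0.033), daf-15 −0.10 and −0.086 without the same libraries (−0.10 to 0.17), xpo-1 0.041 without the first wild-type and 0.058 without the second mutant library (−0.30 to 0.058), raga-1 −0.56 without the first mutant library (−0.56 to 0.56), and rheb-1 −0.33 without the first wild-type library (−0.33 to 0.57). The count of these genes with an unadjusted p below 0.05, 1 by edgeR, was 0 by DESeq2 with or without its prior, and 0 to 1 when single libraries were dropped (0 without the second wild-type library). In a DESeq2 fit added after seeing the data, which combined the prior with a local trend over genes of at least 5 counts, mxl-3 had a moderated log2 fold change of 0.73 with an unadjusted p of 0.0195. The median over the group ranged over −0.10 to 0.19 when single libraries were dropped.

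Over all genes, the 3 calls became 5 with RLE factors, 63 without a filter on low counts, 50 with at least 4 counts in some library, 1 with limma-voom, 15 with DESeq2 and the local trend, and 0 to 66 when single libraries were dropped. Library numbers are shared by the titles only, and deviations of same-numbered libraries correlated at 0.013 over genes. With the replicate block, 87 genes were called, none of the 9 among them, and mxl-3 had an adjusted p of 0.0733. Low counts kept rheb-1 and the 5 lipases from being tested, and only 6 of the 21 further TOR and AMPK genes were tested.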
